A study of Canis lupus familiaris with 12 samples.

Results

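The genes described are those of the matrix metalloproteinases (MMP), the ADAM and ADAMTS metalloproteinases, the ADAMTS-like proteins (ADAMTSL), and the tissue inhibitors of metalloproteinases (TIMP), in Madin-Darby canine kidney (MDCKII) epithelial cells that lack 1 or both of the junctional proteins cingulin (CGN) and paracingulin (CGNL1). They were taken by symbol, as MMP, ADAM, ADAMTS, ADAMTSL, or TIMP followed by a digit, which gave 33 of the 13672 genes of the deposited table. The 33 genes comprised 8 MMP, 10 ADAM, 9 ADAMTS, 3 ADAMTSL, and 3 TIMP genes. RNASeq had been performed on 12 libraries from untreated cells of 4 genotypes, with 3 libraries each. The genotypes were wild-type (WT), CGN-KO (line 1G8), CGNL1-KO (line 22), and CGN/CGNL1 double-KO (dKO, line 21D3). The KO lines were made by CRISPR/Cas9 editing, and each KO genotype was represented by 1 line, so that genotype and line cannot be told apart. Levels are given as CPM, reads scaled to a common library size, in the order of the replicate numbers of a genotype. The column of 1 dKO library carried no number and is given first among the dKO libraries.

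MMPs are secreted or membrane-anchored zinc proteases that cleave collagens, laminins, and other proteins of the extracellular matrix, and most are made as inactive proenzymes. ADAMs are membrane-anchored relatives that release the outer parts of growth factors, cytokines, and adhesion molecules, ADAMTS proteases are secreted and act on proteoglycans and procollagens, and ADAMTSL proteins resemble them but lack the protease domain. TIMPs block the active site of these enzymes, and kidney epithelial cells use the system when they remodel the basement membrane and form tubules.

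Library totals ran from 16837532 to 30086076 reads, with a median of 19562988. The targeted genes followed the labels. CGN was at 47.0 to 56.5 CPM in CGN-KO and 39.7 to 45.3 CPM in dKO libraries, against 199 to 233 CPM in WT. CGNL1 was at 1.76 to 3.02 CPM in CGNL1-KO and 1.11 to 1.76 CPM in dKO, against 7.74 to 12.3 CPM in WT. In CGN-KO libraries CGNL1 was also below every WT library, at 5.04 to 6.92 CPM. CGN in CGNL1-KO libraries, at 198 to 213 CPM, overlapped WT. Epithelial markers (CDH1, EPCAM, KRT8, KRT18, CLDN4, and OCLN) summed to 5355 to 5826 CPM in every library. Single markers within this sum moved both ways. EPCAM was at 554.9 to 612.3 CPM in WT and 688.8 to 790.7 CPM in KO libraries, and CLDN4 at 316.4 to 356.4 CPM and 228.8 to 306.5 CPM. In 28.9% of all genes, the library numbered 1 was the highest or the lowest of its genotype in WT, CGN-KO, and CGNL1-KO alike, and this was so for 11 of the 27 tested members (MMP13, MMP14, MMP15, MMP17, ADAM9, ADAM11, ADAM17, ADAM33, and ADAMTSL4 as highest, TIMP3 and ADAM8 as lowest). Results are therefore also given without these 3 libraries where that alters a call. Nothing in the labels says that the libraries of a genotype came from separate cultures, so p-values measure only the spread between these libraries, which may be technical.

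To ask which members differed between genotypes, log2(CPM + 1) values were compared with limma in 1 fit of the 12 libraries, over the 12650 genes that exceeded 1 CPM in 3 or more libraries. A gene passed the test at a Benjamini-Hochberg adjusted p under 0.05, and was called when it also differed by at least 2-fold. Fold changes on this scale understate those of genes with few reads. Of the 33 members, 27 were tested: 6 MMP, 9 ADAM, 7 ADAMTS, 2 ADAMTSL, and 3 TIMP genes.

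The main changes were a loss of MMP13 and TIMP1 transcripts, a rise of MMP9 in CGNL1-KO cells with a fall in dKO cells, and a rise of ADAMTS1 that passed the test in dKO cells alone among the comparisons with WT. In CGN-KO against WT, 2 of the 27 members were called, MMP13 and TIMP1, both lower, where 1.31% of all genes tested were called. In CGNL1-KO against WT, 2 members were called, MMP9 (higher) and TIMP1 (lower), with 0.617% of all genes called. In dKO against WT, 4 members were called, ADAMTS1 (higher) and MMP13, MMP9, and TIMP1 (lower), with 1.41% of all genes called. Without the libraries numbered 1, the member counts were 3, 1, and 5. These 3 comparisons share the WT libraries, and are given side by side for that reason. In bulk RNA, fewer cells that express a gene and less RNA per cell cannot be told apart.

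At any fold, 9 members passed the test in CGN-KO, 5 higher and 4 lower, beside 11.2% of all genes higher and 7.87% lower. In CGNL1-KO, 8 members passed, 4 higher and 4 lower, beside 6.81% and 3.49% of all genes. In dKO cells 9 passed, 3 higher and 6 lower, beside 14.8% and 11.5% of all genes. The F test over the 4 genotypes was passed by 12 of the 27 members, beside 29.9% of all genes. The median log2 difference of the members from WT was 0.12 (CGN-KO), 0.09 (CGNL1-KO), and 0.01 (dKO), beside medians of -0.00389, -0.00312, and -3.56e-04 over all genes tested. The plot of the 27 differences from WT shows the large changes in MMP13, MMP9, TIMP1, and ADAMTS1.

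**Figure D1:**
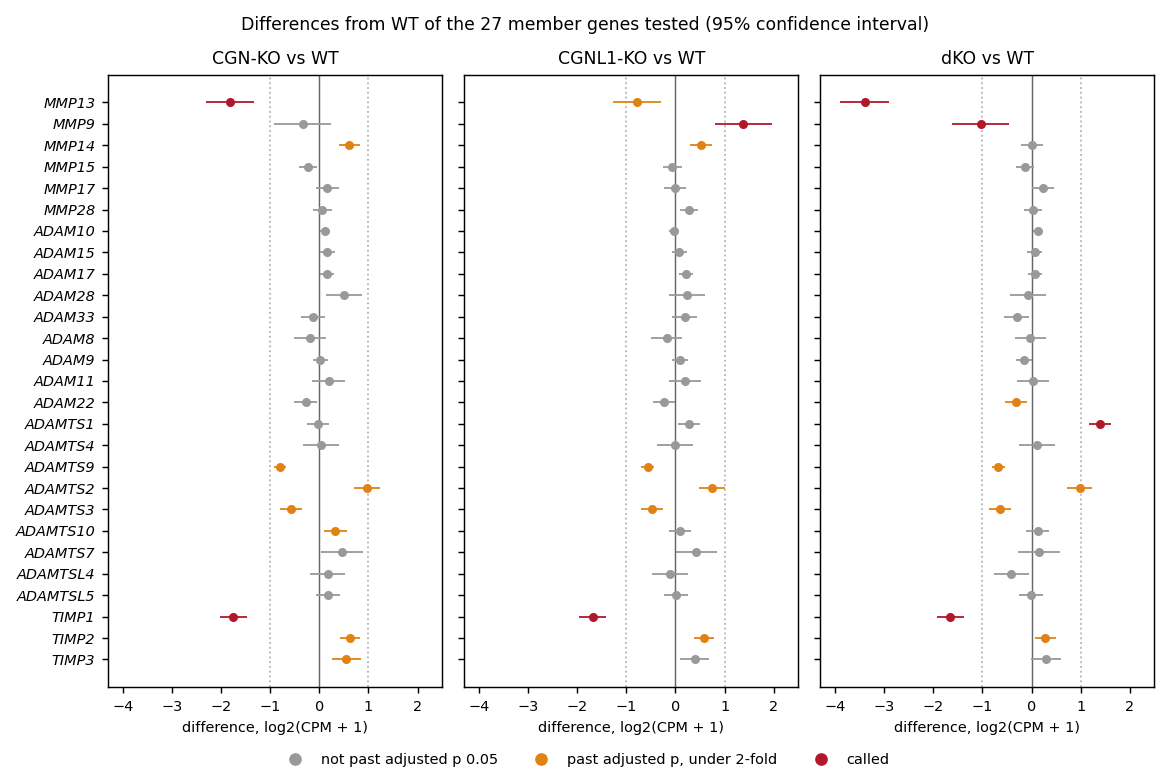
Difference from WT of each tested member on the log2(CPM + 1) scale (x axis) in CGN-KO, CGNL1-KO, and dKO cells, with limma's 95% confidence interval as bars and dotted lines at a 2-fold difference. Red points were called, orange points passed adjusted p 0.05 at less than 2-fold, and grey points did not pass; MMP13 in dKO cells lies farthest from 0, at -3.40.

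MMP13 is a collagenase, an enzyme that can open the triple helix of fibrillar collagens, and was the only secreted collagenase analysed here. Its level was 93.8, 70.4, and 92.2 CPM in WT libraries and 29.1, 17.6, and 24.5 CPM in CGN-KO libraries. It was 71.5, 32.5, and 50.3 CPM in CGNL1-KO libraries and 6.05, 6.20, and 9.62 CPM in dKO libraries, from 109 to 237 reads. Every dKO library was below every CGN-KO library, every CGN-KO library was below every CGNL1-KO library, and CGNL1-KO overlapped WT only through its replicate 1. In mean CPM, MMP13 was 3.60-fold lower in CGN-KO (log2 difference -1.82, SE 0.23, adjusted p = 3.53e-05) and 11.7-fold lower in dKO (log2 difference -3.40, SE 0.23, adjusted p = 3.42e-08) than in WT. The CGNL1-KO difference was under 2-fold (log2 difference -0.78, SE 0.23, adjusted p = 0.0414). It no longer passed the test in 9 of 22 other settings, with an adjusted p of up to 0.158 without CGNL1-KO replicate 2, and reached 2-fold only without CGNL1-KO replicate 1 (-1.05).

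MMP9, or gelatinase B, cleaves denatured collagen and the type IV collagen of basement membranes. Its level was 1.77, 1.82, and 2.53 CPM in WT and 1.91, 1.28, and 1.06 CPM in CGN-KO libraries. CGNL1-KO libraries held 12.8, 3.57, and 6.74 CPM, and dKO libraries 0.339, 0.569, and 0.528 CPM, the latter from 7, 10, and 13 reads. All 3 CGNL1-KO libraries were thus above all WT libraries, with replicate 1 the highest, and all dKO libraries were below all WT libraries. The mean was 3.77-fold higher in CGNL1-KO than in WT (log2 difference 1.38, SE 0.27, adjusted p = 0.00327) and 4.27-fold lower in dKO (log2 difference -1.03, SE 0.27, adjusted p = 0.01004). CGN-KO and WT libraries overlapped, with a log2 difference of -0.34 (95% confidence interval -0.91 to 0.24). Without CGNL1-KO replicate 1, the library with the most MMP9, the CGNL1-KO difference was 0.98 and was no longer called, and without all libraries numbered 1 it was 0.91. Both still passed the test, at adjusted p = 0.00486 and 0.00157. The dKO call was close to the 2-fold limit: the difference was -0.70 with a pseudocount of 2, -0.80 with the replicate block, -0.92 without WT replicate 3 and -0.965 without the unnumbered dKO library.

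MMP14 is a membrane-anchored protease that degrades pericellular collagen and, with TIMP2 as a bridge, activates the proenzyme of the gelatinase MMP2, which was not analysed here. It stood at 14.4, 13.6, and 12.6 CPM in WT, 23.6, 20.0, and 20.1 CPM in CGN-KO, 23.3, 17.3, and 19.3 CPM in CGNL1-KO, and 13.0, 14.2, and 13.8 CPM in dKO libraries. Both single-KO lines lay above WT in every library, while dKO and WT overlapped. The rise passed the test at less than 2-fold in CGN-KO (log2 difference 0.61, SE 0.10, adjusted p = 4.84e-04) and CGNL1-KO (0.52, SE 0.10, adjusted p = 0.00325). In dKO cells the difference from WT was 0.01 (95% confidence interval -0.21 to 0.23). The transcript overlaps SLC7A7 in the RefSeq annotation, and the strand setting of the counting is not given in the sources used here, so reads of the 2 genes might not be told apart.

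Of the other membrane-type enzymes, MMP15 ranged from 53.1 to 76.1 CPM and MMP17 from 11.01 to 16.7 CPM over the 12 libraries, and neither passed the test in any comparison with WT. MMP28, or epilysin, an MMP made by many epithelia, ranged from 32.1 to 47.0 CPM. Its CGNL1-KO libraries (47.0, 37.4, and 38.8 CPM) were all above the WT libraries (32.3, 32.3, and 36.2 CPM), but the difference of 0.28 did not pass the test (adjusted p = 0.0575). MMP19 and MMP24 did not reach the limit on low values. MMP19, a secreted enzyme, was at 18 to 20 reads in WT libraries and at 6 to 12 reads in CGNL1-KO libraries. With no limit on low values its difference passed in CGNL1-KO (-0.54, adjusted p = 0.0197) and dKO (-0.42, adjusted p = 0.0381). MMP24, a membrane-type enzyme, was at 13 reads or fewer everywhere.

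**Figure D2:**
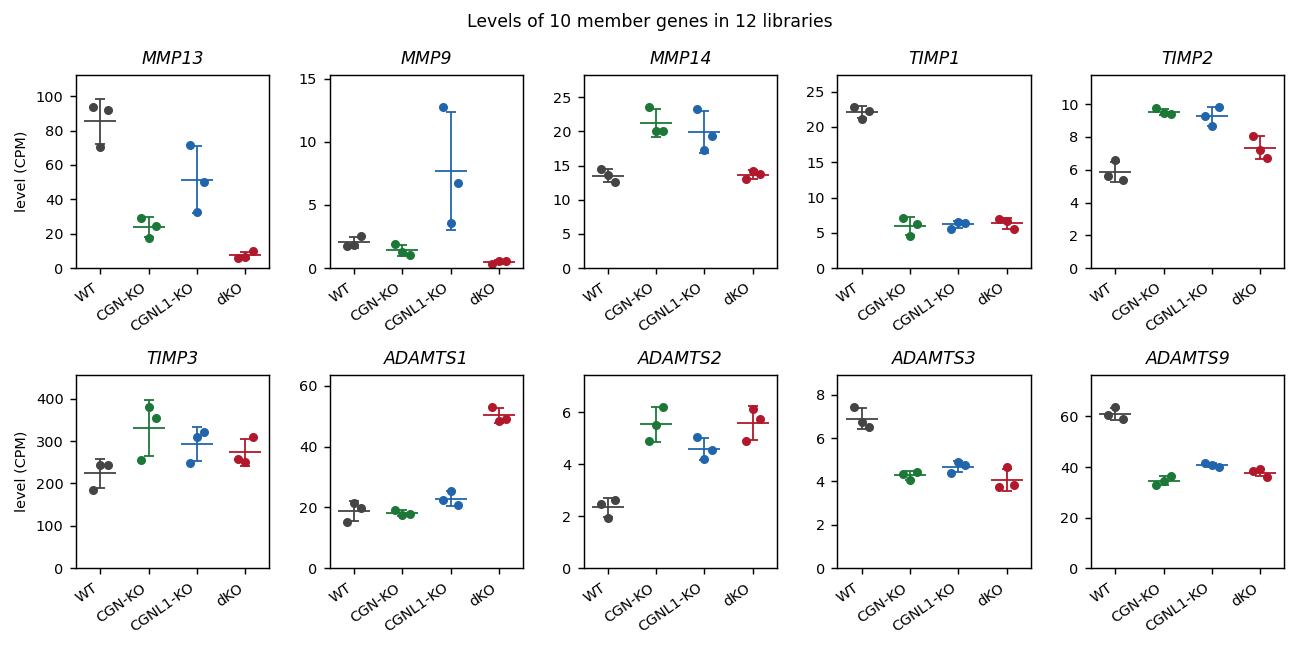
Level in CPM (y axis, from 0) of 10 members in each of the 3 libraries of WT, CGN-KO, CGNL1-KO, and dKO cells (points), with the mean and SD (bars). TIMP1 fell to about the same level in all KO lines, MMP13 stepped down from WT to CGNL1-KO, CGN-KO, and dKO, and ADAMTS1 stood out in dKO, at 48.6 to 53.0 CPM.

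TIMP1, the soluble inhibitor of most secreted MMPs, fell in every KO line. It was at 22.9, 21.2, and 22.2 CPM in WT, 7.09, 4.54, and 6.20 CPM in CGN-KO, 5.57, 6.59, and 6.42 CPM in CGNL1-KO, and 6.93, 6.71, and 5.48 CPM in dKO libraries. The highest KO library (7.09 CPM) was far below the lowest WT library (21.2 CPM). The mean was 3.72-fold lower in CGN-KO (log2 difference -1.75, SE 0.13, adjusted p = 8.20e-08), 3.57-fold lower in CGNL1-KO (-1.68, adjusted p = 2.59e-07), and 3.47-fold lower in dKO (-1.65, adjusted p = 1.41e-07). The KO lines could not be distinguished from each other: CGN-KO minus CGNL1-KO was -0.07 (95% confidence interval -0.34 to 0.20), dKO minus CGN-KO 0.10 (-0.17 to 0.37), and dKO minus CGNL1-KO 0.03 (-0.24 to 0.30).

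The other inhibitors did not share this fall. TIMP2, which inhibits MMPs and also docks the MMP2 proenzyme on MMP14, was at 5.60, 6.57, and 5.40 CPM in WT, 9.76, 9.48, and 9.39 CPM in CGN-KO, 9.29, 8.67, and 9.84 CPM in CGNL1-KO, and 8.09, 7.22, and 6.70 CPM in dKO libraries. All KO libraries were above all WT libraries. The log2 difference was 0.62 in CGN-KO (SE 0.10, adjusted p = 2.80e-04), 0.58 in CGNL1-KO (adjusted p = 9.06e-04), and 0.28 in dKO (adjusted p = 0.0442). The dKO difference did not pass in 14 of 22 other settings, and the difference of dKO from CGN-KO (-0.34, adjusted p = 0.0402) did not pass in 7 of 22. TIMP3, the matrix-bound inhibitor that also blocks ADAM17 and several ADAMTS enzymes, was at 185, 243, and 244 CPM in WT, 255, 380, and 355 CPM in CGN-KO, 249, 310, and 322 CPM in CGNL1-KO, and 259, 252, and 310 CPM in dKO libraries. Every KO library exceeded every WT library here too, but only the CGN-KO difference passed the test (log2 difference 0.55, SE 0.14, adjusted p = 0.0114; 0.39 in CGNL1-KO, adjusted p = 0.0964; 0.29 in dKO, adjusted p = 0.139). The CGN-KO difference no longer passed without WT replicate 1 (0.42, adjusted p = 0.0592), without CGN-KO replicate 2, and without CGN-KO replicate 3. TIMP3 overlaps SYN3 in the annotation.

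Among the proteoglycan-cleaving ADAMTS genes, ADAMTS1, whose product cuts versican and aggrecan, was raised in dKO cells. It was at 15.2, 21.3, and 19.8 CPM in WT, 19.3, 17.5, and 17.7 CPM in CGN-KO, 22.5, 25.5, and 20.7 CPM in CGNL1-KO, and 53.0, 48.6, and 49.1 CPM in dKO libraries. The lowest dKO library was well above the highest library of any other genotype, which was 25.5 CPM. The mean was 2.67-fold higher in dKO than in WT (log2 difference 1.39, SE 0.10, adjusted p = 1.21e-07). Neither single KO passed the test (-0.03 in CGN-KO, 95% confidence interval -0.26 to 0.19; 0.28 in CGNL1-KO, 0.06 to 0.50, adjusted p = 0.113).

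ADAMTS9, of the same class, fell in all 3 KO lines. Its levels were 60.5, 63.7, and 59.0 CPM in WT, 33.0, 34.3, and 36.7 CPM in CGN-KO, 41.7, 40.9, and 39.9 CPM in CGNL1-KO, and 38.3, 39.1, and 36.1 CPM in dKO libraries. The fall was under 2-fold and exceeded the spread between libraries many times: -0.80 in CGN-KO (SE 0.06, adjusted p = 1.40e-07), -0.57 in CGNL1-KO (adjusted p = 1.25e-05), and -0.68 in dKO (adjusted p = 7.47e-07). ADAMTS4, another aggrecanase of the class, was at 1.90 to 3.95 CPM and its differences from WT were within 0.11 of 0.

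The procollagen N-propeptidases ADAMTS2 and ADAMTS3, which trim the amino end of procollagens, moved in opposite directions in all 3 KO lines. ADAMTS2 was at 2.47, 1.93, and 2.63 CPM in WT, 4.88, 5.53, and 6.20 CPM in CGN-KO, 5.05, 4.20, and 4.55 CPM in CGNL1-KO, and 4.89, 6.14, and 5.72 CPM in dKO libraries, which put every KO library above every WT library. Its mean was 2.36-fold higher in CGN-KO (log2 difference 0.97, SE 0.12, adjusted p = 3.53e-05), 1.96-fold in CGNL1-KO (0.75, adjusted p = 7.38e-04), and 2.38-fold in dKO (0.98, adjusted p = 2.38e-05). None reached 2-fold on the log2(CPM + 1) scale. The CGN-KO and dKO rises were called on the recovered reads by edgeR's quasi-likelihood test and DESeq2, and also without the libraries numbered 1 (1.07 and 1.01). ADAMTS3 was at 7.42, 6.73, and 6.50 CPM in WT, 4.35, 4.05, and 4.43 CPM in CGN-KO, 4.41, 4.87, and 4.76 CPM in CGNL1-KO, and 3.73, 4.66, and 3.86 CPM in dKO libraries, all KO libraries below all WT libraries. The log2 differences were -0.58 (adjusted p = 8.90e-04), -0.47 (adjusted p = 0.00748), and -0.64 (adjusted p = 2.95e-04), each with an SE of 0.10, for CGN-KO, CGNL1-KO, and dKO cells. The CGNL1-KO difference was -0.39 (adjusted p = 0.0612) without the libraries numbered 1. ADAMTS3 overlaps LOC102152779 in the annotation.

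The rest of the family gave small differences. ADAMTS10, a protein of fibrillin microfibrils, passed the test in CGN-KO at 18.1, 22.0, and 18.2 CPM against 14.4, 15.8, and 15.6 CPM in WT (log2 difference 0.33, SE 0.11, adjusted p = 0.0478), and did not pass in 8 of 22 other settings. ADAMTS7, which cleaves a cartilage matrix protein, ranged from 0.412 to 1.88 CPM without passing. ADAMTSL5 (7.46 to 10.6 CPM) and ADAMTSL4 (3.004 to 6.40 CPM), the ADAMTS-like proteins tested, did not pass against WT. ADAMTS6, ADAMTS12, and ADAMTSL3 stayed under the limit on low values. ADAMTSL3 was at 13 to 16 reads in CGN-KO libraries and 2 to 5 reads in WT libraries, a difference of 0.49 that passed with no limit on low values (adjusted p = 0.00991).

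No ADAM was called in any of the 6 comparisons of genotypes, where 0.356% to 1.41% of all genes were called, so that a count of 0 among 9 genes is near that background. At any fold, ADAM22 in dKO passed against WT, 1 of 9 genes, beside 14.8% of all genes higher and 11.5% lower. ADAM10, the protease that sheds Notch and E-cadherin, was at 220, 234, and 222 CPM in WT, 237, 249, and 249 CPM in CGN-KO, 221, 214, and 225 CPM in CGNL1-KO, and 253, 251, and 239 CPM in dKO libraries. CGN-KO and dKO libraries were all slightly above WT (log2 differences 0.12 and 0.14, adjusted p = 0.0950 and 0.0507), and the F test across genotypes was passed (adjusted p = 0.0242). ADAM17, the enzyme that releases tumor necrosis factor and ligands of the EGF receptor, ranged from 96.7 to 125 CPM, and its groups overlapped in every comparison. ADAM22, an adhesion protein of the nervous system without protease activity, was at 10.5, 10.7, and 10.5 CPM in WT, above every KO library: 9.17, 7.90, and 8.50 CPM in CGN-KO, 10.1, 7.76, and 8.77 CPM in CGNL1-KO, and 7.51, 9.50, and 7.92 CPM in dKO libraries. The dKO difference was -0.32 (SE 0.11, adjusted p = 0.0372) and did not pass in 6 of 22 other settings. ADAM9 and ADAM15 ranged from 175 to 243 CPM and from 41.0 to 53.7 CPM. ADAM28 was at 2.89 to 3.11 CPM in WT and 3.60 to 6.69 CPM in CGN-KO libraries (log2 difference 0.50, adjusted p = 0.0520). ADAM33, ADAM11, and ADAM8 did not pass against WT, and ADAM18, a sperm protein without protease activity, was at 5 to 19 reads.

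Whether loss of both proteins differed from loss of 1 was tested between the KO lines. CGN-KO and CGNL1-KO differed in 2 called members, MMP13 and MMP9, beside 0.648% of all genes. MMP13 was lower in CGN-KO by 1.04 on the log2 scale (a log2 difference of -1.04, SE 0.23, adjusted p = 0.0132) and MMP9 was 5.42-fold lower in mean CPM (-1.72, SE 0.27, adjusted p = 0.00101). The MMP13 difference was close to 2-fold, and was -0.93 without the libraries numbered 1. It did not pass in the fit of these 2 genotypes alone (-1.04, adjusted p = 0.0677). Nor did it pass without CGN-KO replicate 2 (-0.85, adjusted p = 0.0708) or without CGNL1-KO replicate 3 (-1.02, adjusted p = 0.0621). ADAMTS9 also passed between these lines (-0.23, adjusted p = 0.0349), but not in 10 of 22 other settings. Against CGN-KO, dKO cells differed in 2 called members, beside 0.356% of all genes: ADAMTS1 was higher (1.42, SE 0.10, adjusted p = 9.47e-07) and MMP13 lower (-1.57, SE 0.23, adjusted p = 5.81e-04). Against CGNL1-KO, dKO cells differed in 3, beside 0.696% of all genes: ADAMTS1 was higher (1.10, adjusted p = 4.03e-06), and MMP13 (-2.62, adjusted p = 1.94e-06) and MMP9 (-2.41, adjusted p = 2.18e-05) were lower. The MMP9 level in dKO was 16.1-fold below that in CGNL1-KO. MMP9 was also lower in every dKO library than in every CGN-KO library (log2 difference -0.70), but this did not pass (adjusted p = 0.133). It was called in 1 of 22 other settings. At less than 2-fold, MMP14 was lower in dKO than in CGN-KO (-0.60, adjusted p = 0.00178) and CGNL1-KO (-0.51, adjusted p = 0.00331), and ADAMTSL4 was lower than in CGN-KO (-0.59, adjusted p = 0.0408), which did not pass in 8 of 22 other settings. Against CGNL1-KO, 3 ADAM genes passed: ADAM33 was lower (-0.49, adjusted p = 0.00970), ADAM9, a widely expressed sheddase, was lower (-0.24, adjusted p = 0.0359), and ADAM10 was higher (0.17, adjusted p = 0.0270). These did not pass in 1 (ADAM33), 7 (ADAM9), and 5 (ADAM10) of 22 other settings.

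A further contrast, chosen after these values had been seen, compared the dKO difference from WT with the sum of both single-KO differences on the log2(CPM + 1) scale. It was called for 4 of 27 members, beside 1.63% of all genes, and passed at any fold for 9. ADAMTS1 exceeded the sum by 1.14 (SE 0.15, adjusted p = 1.26e-04). MMP9 was below the sum (a contrast of -2.08, SE 0.39, adjusted p = 0.00226), with its rise in CGNL1-KO cells and its fall in dKO cells. MMP14 was below it too (-1.12, SE 0.14, adjusted p = 1.17e-04), raised in both single-KO lines and overlapping WT in dKO, and was at -0.97 without the libraries numbered 1. TIMP1 lay above the sum by 1.78 (SE 0.18, adjusted p = 9.94e-06), with a fall of about the same size in each single KO and in dKO. This contrast is about the size of that shared fall, so it does not separate dKO from the single-KO lines. ADAMTS2 (-0.735), TIMP2 (-0.93), TIMP3 (-0.65), ADAM28 (-0.80), and ADAMTS9 (0.69) also passed, each with a dKO difference nearer to 0 than the sum. TIMP3 and ADAM28 did not pass in 12 and 13 of 21 other settings. As for TIMP1, the ADAMTS2 and ADAMTS9 contrasts are about the size of a change from WT that every KO line had. ADAMTS2 in dKO did not pass against CGN-KO (0.01, adjusted p = 0.970) or CGNL1-KO (0.23, adjusted p = 0.242). Neither did ADAMTS9 (0.12, adjusted p = 0.246, and -0.11, adjusted p = 0.271). TIMP3 and ADAM28 did not pass between dKO and either single-KO line. For MMP13 the dKO fall of -3.40 was larger than the sum, by -0.79 (95% confidence interval -1.49 to -0.10), which did not pass (adjusted p = 0.142).

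**Figure D3:**
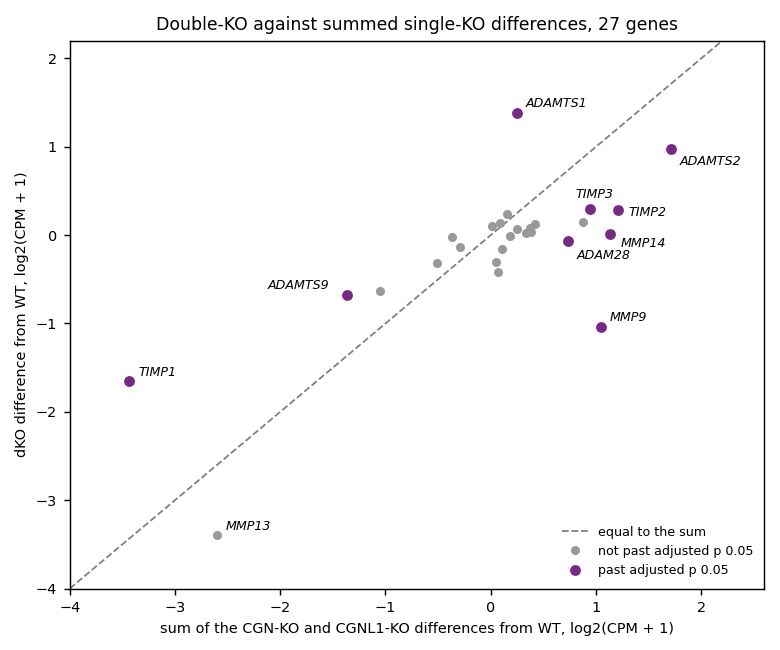
Difference of dKO from WT (y axis) against the sum of the CGN-KO and CGNL1-KO differences from WT (x axis), both on the log2(CPM + 1) scale, for the 27 members tested, with a dashed line where they are equal. ADAMTS1 lies above the line by 1.14 and MMP9 below it (a contrast of -2.08), purple points passed the test of this contrast, and WT libraries enter both axes.

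Genes that act with these enzymes were taken from 5 lists, whose counts are to be read beside the shares of all genes that passed: 11.2% higher and 7.87% lower (CGN-KO), 6.81% and 3.49% (CGNL1-KO), and 14.8% and 11.5% (dKO). Of the activators and other inhibitors, 16 of 21 were tested, and 6 were higher and 1 lower in CGN-KO cells, 5 were higher and 1 lower in CGNL1-KO cells, and 6 were higher and 2 lower in dKO cells, with medians of 0.22, 0.12, and 0.06. PLAU, or urokinase, which makes the plasmin that activates several MMP proenzymes, was at 199 to 215 CPM in WT and 184 to 229 CPM in CGNL1-KO libraries, and at 79.3 to 90.2 CPM in CGN-KO and 73.3 to 86.5 CPM in dKO libraries. PLAU was thus lower than WT in the CGN-KO and dKO lines (log2 differences -1.25, adjusted p = 2.02e-08, and -1.39, adjusted p = 5.91e-09).

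Of the proteins shed by ADAMs, 27 were tested, of which 11 were higher and 3 lower in CGN-KO cells, 11 were higher and 3 lower in CGNL1-KO cells, and 8 were higher and 2 lower in dKO cells, with medians of 0.14, 0.19, and 0.06. LRP1, the receptor that clears complexes of MMPs and TIMPs from the medium, was at 18 to 25.1 CPM in WT, 57.2 to 62.1 CPM in CGN-KO, 37.3 to 49.3 CPM in CGNL1-KO, and 51.2 to 59.4 CPM in dKO libraries. It was called in CGN-KO (1.46, adjusted p = 1.09e-07) and dKO (1.35, adjusted p = 2.09e-07) and passed in CGNL1-KO (0.96, adjusted p = 1.92e-05). NRG1, a ligand of ERBB receptors, was called in dKO cells, at 84.3 to 99.5 CPM against 36.0 to 45.8 CPM in WT (1.11, adjusted p = 2.41e-05). NRG1 was also above every WT library in CGN-KO (59.05 to 85.8 CPM) and CGNL1-KO (68.0 to 100.9 CPM), where it was not called. JAG1, a Notch ligand named after its values had been seen, was at 77.9 to 82.4 CPM in WT and 139 to 170 CPM in the KO libraries, and passed in all 3 lines at just under 2-fold (log2 differences 0.97, 0.92, and 0.85).

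Of the matrix substrates, 12 of 22 were tested, and 5 were higher and 1 lower in CGN-KO cells, 6 were higher and 1 lower in CGNL1-KO cells, and 8 were higher and 1 lower in dKO cells, where their median log2 difference was 0.40 beside -3.56e-04 over all genes tested (0.21 and 0.20 for the single-KO lines). VCAN, the proteoglycan versican that ADAMTS1 and ADAMTS9 cut, was at 87.4 to 95.4 CPM in WT and 227 to 241 CPM in dKO libraries (log2 difference 1.37, adjusted p = 2.53e-10). It was under 2-fold in CGN-KO (0.84) and CGNL1-KO (0.27), and passed the test in both. COL4A1, a chain of type IV collagen, was at 76.0 to 89.1 CPM in WT and 177 to 198 CPM in dKO libraries (1.18, adjusted p = 1.10e-07).

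Of the partners of ADAM10 and ADAM17, 7 were tested. Of these (medians 0.05, 0.01, and 0.06), 1 was higher in CGN-KO (TSPAN33, a tetraspanin that binds ADAM10), none passed in CGNL1-KO, and 2 were higher in dKO (TSPAN33 and FRMD8, which stabilizes ADAM17 at the cell surface). Of the 13 AP-1 and ETS transcription factors, which bind elements in several MMP and TIMP promoters, 3 were higher and 2 lower in CGN-KO cells, 1 were higher and 2 lower in CGNL1-KO cells, and 2 were higher and 3 lower in dKO cells, with medians of 0.14, -0.03, and -0.00137. ETV5, an ETS factor, was called in CGN-KO (2.67 to 4.38 CPM, log2 difference -1.11, adjusted p = 1.98e-04) and dKO (2.44 to 2.73 CPM, -1.39, adjusted p = 1.68e-05), against 7.23 to 11.5 CPM in WT. In CGNL1-KO, ETV5 passed at less than 2-fold (4.24 to 5.98 CPM, -0.64, adjusted p = 0.0229), with every library below WT.

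**Figure D4:**
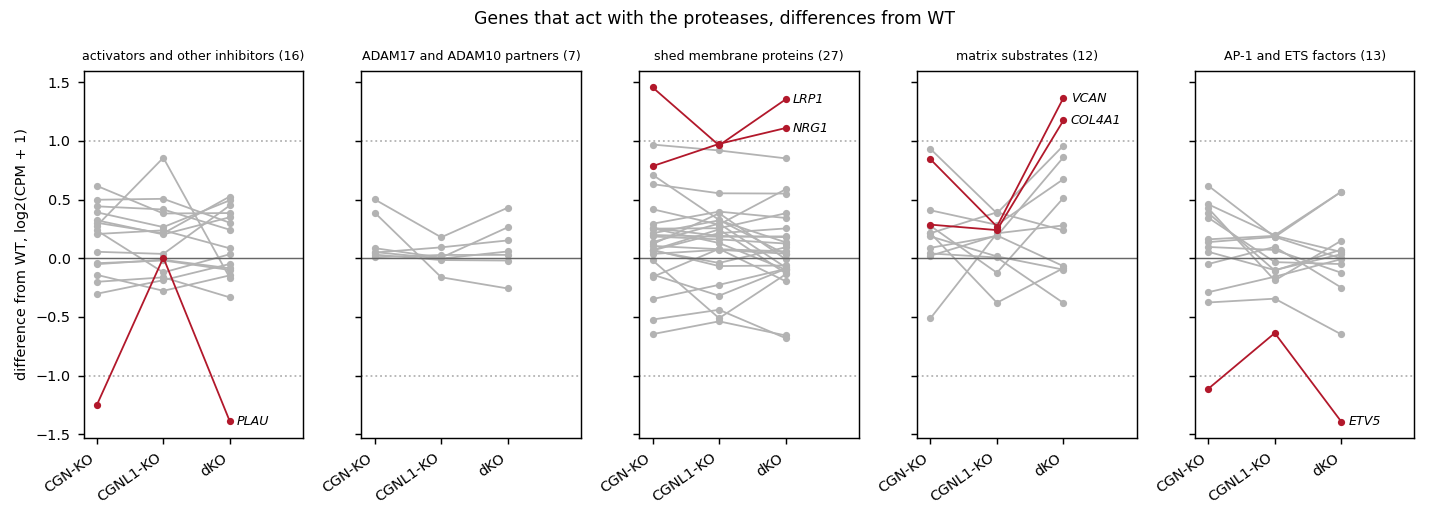
Difference from WT on the log2(CPM + 1) scale (y axis) in CGN-KO, CGNL1-KO, and dKO cells for the tested genes of the 5 lists, 1 line per gene, with the number of genes tested in brackets and dotted lines at 2-fold. Genes called in at least 1 comparison are red and named. PLAU is at -1.25 in CGN-KO, -1.39 in dKO, and near 0 in CGNL1-KO, and VCAN is at 1.37 in dKO cells.

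Markers of other cell types were scarce. Of 9 mesenchymal markers PDGFRA and ACTA2 were analysed here, with a summed level of 3.09 to 5.60 CPM in WT, 6.42 to 11.3 CPM in CGN-KO, 4.11 to 9.93 CPM in CGNL1-KO, and 5.04 to 7.28 CPM in dKO libraries. PDGFRA passed the test in CGN-KO (log2 difference 0.81, adjusted p = 0.0489). Of 5 leukocyte markers CD68 alone was analysed, at 0.560 to 1.34 CPM. Of 4 endothelial markers KDR was analysed, at 1.12 to 1.77 CPM in WT, 0.758 to 0.938 CPM in CGN-KO, 1.92 to 2.41 CPM in CGNL1-KO, and 0.0969 to 0.284 CPM in dKO libraries, so that it was highest in CGNL1-KO and lowest in dKO libraries, as was MMP9. The part of these transcripts in the members' results was not tested.

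Neighbouring genes were compared with the members by the order of genes in RefSeq (assembly UU_Cfam_GSD_1.0, names and order alone), in which all 33 members were found. The 10 tested genes on each side of MMP13 had median differences from WT of -0.03 (CGN-KO), 5.06e-04 (CGNL1-KO), and 0.06 (dKO). BIRC3, the second tested gene after MMP13 and singled out after its values had been seen, was at -0.996 (CGN-KO), 0.18 (CGNL1-KO), and -0.87 (dKO). Neighbours of TIMP1, between ARAF and ELK1, had medians of 0.04, 0.01, and 0.01, and those of ADAMTS1 medians of -0.09, -0.04, and -0.06. MMP9, ADAM33, and MMP24, which was not tested, lie on the chromosome of MYL9. The tested genes of this chromosome had median differences of 0.19, 0.20, and 0.14 for the 3 KO lines in the same order. The 20 neighbours of MMP9 had medians of 0.04, 0.03, and -0.01. The 20 neighbours of MMP28 had medians of 0.285, 0.322, and 0.359, the highest of the 27 tested members, while MMP28 itself was at 0.06, 0.28, and 0.03. Overlap with another listed gene was found for ADAM33 (SIGLEC1), ADAMTSL3 (SAXO2), and MMP28 (LOC111097422), besides ADAMTS3, MMP14, and TIMP3.

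**Figure D5:**
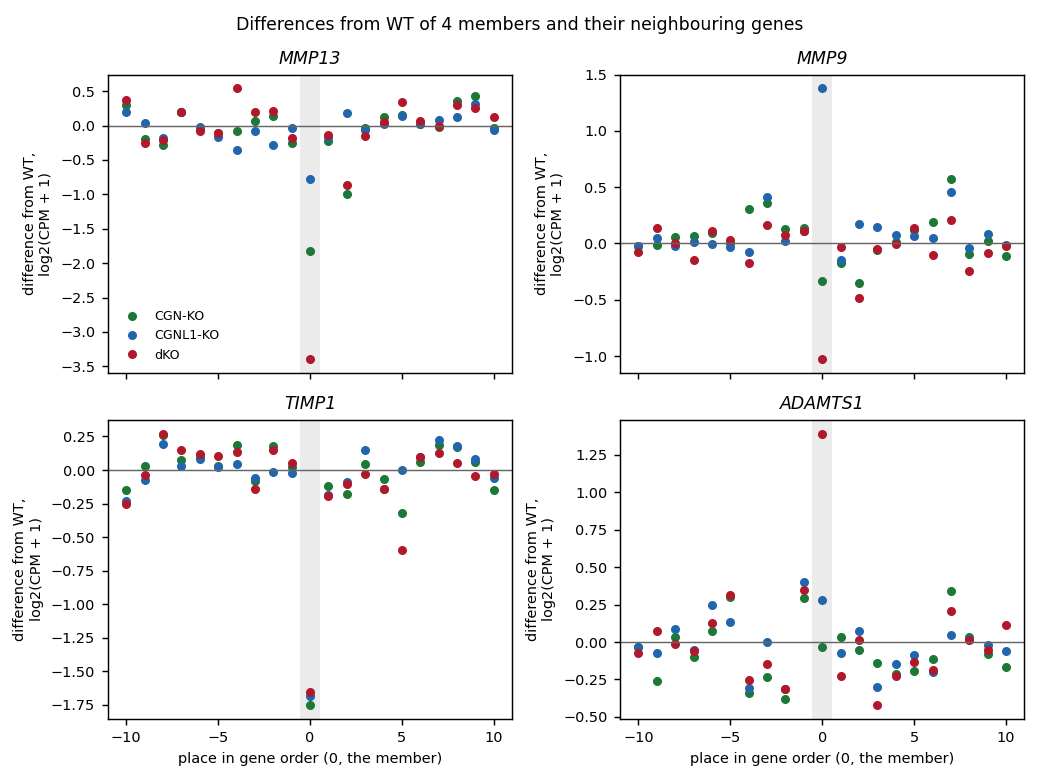
Difference from WT on the log2(CPM + 1) scale (y axis) of MMP13, MMP9, TIMP1, and ADAMTS1 (grey band) and of the 10 tested genes on each side in gene order (x axis), in CGN-KO (green), CGNL1-KO (blue), and dKO (red) cells. MMP13 reached -3.40 in dKO cells, where its neighbours ran from -0.869 to 0.544, and BIRC3 near MMP13 was at -0.996 in CGN-KO cells.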

How the data were processed

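RNA from MDCKII cells had been made into libraries with a TruSeq stranded mRNA kit. Per the study's methods and the submitters' processing notes, the authors aligned reads with STAR 2.7.0f to CanFam 3.1, counted them per gene with HTSeq 0.9.1, and normalized and filtered them with edgeR. The strand setting and the annotation are not given in the sources used here. The deposited signal is CPM on an effective library size, and each of the 12 columns held whole multiples of 1 read (100% of values, tolerance 0.01 reads), from which reads and library totals were recovered. Depth limits members with few reads.

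Members were taken by symbol. The members, the gene lists, and the markers were chosen with earlier results of these data known. Named genes were the members called in any comparison of 2 genotypes, those that passed in all 3 comparisons with WT, the member with the most reads in each class, and the 3 largest differences in each comparison with WT, and from the lists the called genes. A gene of the lists is not reported here and was left out of their counts. Other members and list genes were named after their values had been seen. Values were tested with limma 3.58.1 (R 4.3.3; trend, no block, 4 genotypes in 1 fit) on log2(CPM + 1), keeping genes above 1 CPM in 3 or more libraries, with Benjamini-Hochberg adjustment over 12650 genes. The script was tested on simulated data. Alternatives were other pseudocounts, filters, and scaling, edgeR 4.0.16 and DESeq2 1.42.0 on the recovered reads, a fit of the 2 genotypes compared, a replicate block, and leaving out each library. The contrast of the dKO difference with the sum of the single-KO differences, and the fit without the 3 libraries numbered 1, were added after the data had been seen.

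Same-numbered libraries of CGN-KO and CGNL1-KO deviated together from their group means (correlation over genes 0.632, 0.475, and 0.179 for numbers 1, 2, and 3), and were read as paired. The main fit had no block and did not use this pairing, which entered only the alternative with a replicate block. Same-numbered libraries of WT and CGN-KO correlated at 0.373, 0.318, and -0.0822 for numbers 1, 2, and 3. Those of WT and CGNL1-KO correlated at 0.329, 0.371, and 0.011. Libraries of WT and the single-KO lines thus deviated together at numbers 1 and 2, but not at number 3. Same-numbered libraries of dKO and the other genotypes were not paired (-0.235 to 0.0859).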

Additional observations from a re-analysis of the deposited data

Results flagged for a closer look

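Results are listed here when the same gene differed between KO lines, or when the dKO difference from WT differed from the sum of the single-KO differences, by limma's test of that difference itself. All values are log2 differences on the log2(CPM + 1) scale with 3 libraries per genotype.

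ADAMTS1 was higher in dKO than in CGN-KO (1.418, adjusted p = 9.47e-07) and CGNL1-KO (1.104, adjusted p = 4.03e-06), and exceeded the sum of the single-KO differences by 1.137 (adjusted p = 1.26e-04). All dKO libraries were above all libraries of the other genotypes.

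MMP13 was lower in CGN-KO than in CGNL1-KO (-1.042, adjusted p = 0.0132), and lower in dKO than in CGN-KO (-1.575, adjusted p = 5.81e-04) and CGNL1-KO (-2.617, adjusted p = 1.94e-06). The libraries of these groups did not overlap.

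MMP9 was lower in CGN-KO than in CGNL1-KO (-1.716, adjusted p = 0.00101) and lower in dKO than in CGNL1-KO (-2.415, adjusted p = 2.18e-05), and its dKO difference was below the sum of the single-KO differences (-2.079, adjusted p = 0.00226). CGNL1-KO replicate 1 held the highest MMP9 level, 12.8 CPM.

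MMP14 in dKO was below the sum of the single-KO differences (-1.118, adjusted p = 1.17e-04), and TIMP1 was above it (1.783, adjusted p = 9.94e-06). For TIMP1 this is about the size of the fall from WT that all KO lines shared.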

How the results depend on the processing

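No difference of a member that passed the test reversed under 22 other settings. Of 1085 recomputed differences of single members, 978 kept their side of adjusted p 0.05 and 107 lost it. Calls of MMP13 in CGN-KO and dKO against WT, of TIMP1 in all KO lines, and of ADAMTS1 in dKO held in 22 of 22 settings. Settings that left out a library of a genotype outside a comparison kept its log2 difference, and altered only its spread and adjusted p. With the filter of more than 5 CPM, MMP9 was not tested and 1 member was called in CGNL1-KO against WT and 1 when the single-KO lines were compared. For the latter comparison, 1 member was called when values were scaled to library totals and in the fit of these 2 genotypes, and 1 to 2 when single libraries were left out, MMP13 losing its call without CGN-KO replicate 2, CGNL1-KO replicate 1, or CGNL1-KO replicate 3. Without the 3 libraries numbered 1, chosen after seeing the data, 1 member (TIMP1) was called in CGNL1-KO against WT, 1 (MMP9) between CGN-KO and CGNL1-KO, and 3 in the contrast with the summed differences, where MMP14 was at -0.97. edgeR's quasi-likelihood test called 309, 157, and 328 of all genes in CGN-KO, CGNL1-KO, and dKO against WT, and DESeq2 305, 157, and 326, beside 166, 78, and 178 with limma, and both called 3, 2, and 5 members. Between CGN-KO and CGNL1-KO, dKO and CGN-KO, and dKO and CGNL1-KO, edgeR called 146, 118, and 194 genes and DESeq2 144, 117, and 199, beside 82, 45, and 88, and in the contrast with the summed differences 308 and 310, beside 206. A pseudocount of 2 gave 116 genes in dKO against WT, and 52, 28, and 52 in those 3 comparisons, a pseudocount of 0.5 gave 71 between dKO and CGN-KO, and the filter of more than 5 CPM 136 in the contrast with the summed differences. With the replicate block, 2, 2, and 4 members were called against WT, and 2 between CGN-KO and CGNL1-KO, where the numbers pair the libraries and the block changed no call of a member. In dKO cells the block brought in ADAMTS2 and dropped MMP9, at -0.80. Scaling to library totals moved the median of all genes by less than 0.1. The cause of these changes was not tested. MMP9 in dKO cells rests on 7 to 13 reads per library, which limits its precision.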
